A study of Mus musculus with 12 samples.

Results

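Mouse lung cells sorted for smooth muscle actin and PDGF receptor reporters at postnatal day 10 (P10) were compared with cells sorted the same way at embryonic stage E17.5, the latest and the earliest of 4 stages measured by bulk RNA sequencing. The comparison rests on 6 of 12 libraries, 3 from P10 and 3 from E17.5, chosen by their labelled stage. The 6 libraries of P3 and P7 entered the same model, where they help to estimate the spread, and are described only where the course of a gene over the 4 stages is given. Every library, at P10 and at E17.5 alike, came from lung cells that carry the reporters Acta2-dsRed and Pdgfra-GFP and were freed from whole lung and sorted for both colours. Acta2 encodes smooth muscle actin and Pdgfra the alpha receptor for platelet-derived growth factor. The sort defines the cells by the activity of these reporters at each stage, so it takes whatever cells carry both signals at that age and does not follow one lineage. Sex, strain and the number of animals behind a library are not in the labels, and they do not say whether replicate libraries are separate animals. The p-values therefore speak only to the spread among these libraries, part of which may be technical.

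Alveoli form when ridges of tissue, the secondary crests, grow into the saccules of the newborn lung. Myofibroblasts at the crest tips carry smooth muscle actin and the alpha PDGF receptor and lay down elastin and collagen, the fibres that give the lung its recoil. E17.5 lies before birth, when the distal airspaces are still forming, and P10 lies within the period of crest growth. Per its title the series concerns Hippo signalling, a kinase pathway that holds back the coactivators YAP and TAZ. Both reporter genes were read in all 6 libraries. Acta2 (chromosome 19, 34241090 to 34255590, minus strand) had 676, 364 and 420.4 CPM at P10, against 347, 432 and 696 CPM at E17.5. The stages overlapped and no difference was detected (log2 fold change -0.02, 95% interval -0.62 to 0.59, adjusted p = 0.977). Its sign turned to higher at P10 under upper-quartile scaling and without any one of E17.5 replicate 3, P10 replicate 2 or P10 replicate 3. Pdgfra (chromosome 5, 75152292 to 75198215, plus strand) had 177, 249 and 236 CPM at P10, against 268, 409 and 361 CPM at E17.5. It was lower at P10 in every library, and passed at an adjusted p of 0.0347 with a log2 fold change of -0.65. The call of Pdgfra ended without any one of E17.5 replicates 2 or 3, P3 replicate 2, P7 replicate 1 or P10 replicates 1, 2 or 3 (adjusted p between 0.05101 and 0.117). It also ended with upper-quartile scaling (adjusted p = 0.0633), with only the 6 libraries compared (adjusted p = 0.107) and without both E17.5 replicate 2 and P10 replicate 3 (adjusted p = 0.178). Both genes drive the reporters used for the sort, so their levels are not independent of the gate.

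Levels are CPM, counts scaled by library size from the authors' estimated counts with TMM factors. They are not compared between genes, because the estimated counts look length-scaled and the labels do not give how. A log2 fold change is P10 over E17.5, so a positive value means higher at P10. An adjusted p is from edgeR's quasi-likelihood test, adjusted over all tested genes, and a gene passed when it was under 0.05. Positions are on the mouse build GRCm38.

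The sum of estimated counts per library lay between 13328623 and 18740591. Short noncoding RNA genes took 70.0% of that sum in E17.5 replicate 2 and 32.4% in P10 replicate 3, where the other 10 libraries lay between 44.1% and 55.9%. These are not shares of reads, since values of short genes look length-scaled. E17.5 replicate 1 stood apart in fibroblast markers. The alveolar fibroblast markers summed to 3011 CPM in it, against 739.6 and 654 CPM in the other 2 libraries of its stage. P10 replicate 1 stood apart in muscle, epithelial and endothelial markers, with contractile genes at 8593 CPM, against 5941 and 6292 CPM in P10 replicates 2 and 3. Spearman correlations over genes lay between 0.942 and 0.954 within P10, between 0.938 and 0.941 within E17.5, and between 0.872 and 0.908 across the 2 stages.

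Of 16827 tested genes, 3077 (18.3%) passed. Of these, 1479 (8.79% of those tested) were higher at P10 and 1598 (9.5%) were lower. A difference of at least 2-fold was seen for 1660 of them (9.87% of tested genes), 851 higher and 809 lower, and one of at least 8-fold for 153 higher and 218 lower. The 3 libraries of P10 and the 3 of E17.5 did not overlap for 5696 genes (33.9%), which included 3029 of the 3077 that passed. The number that passed was 2016 without P10 replicate 3, 2144 without P10 replicate 2 and 1543 without both E17.5 replicate 2 and P10 replicate 3. Under upper-quartile scaling 58.0% of the calls were higher at P10, against 48.1% with TMM, and the median log2 fold change of all genes was 0.083, against 0.005 with TMM. The shares of 8.79% higher and 9.5% lower are the background for the counts of each gene list below. The list counts were also taken with only the 6 libraries compared, which gave 1687 calls over all genes, and are given where they moved by more than 1.5 times. In bulk libraries such as these, fewer cells of a type and less RNA per cell cannot be told apart.

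**Figure D1:**
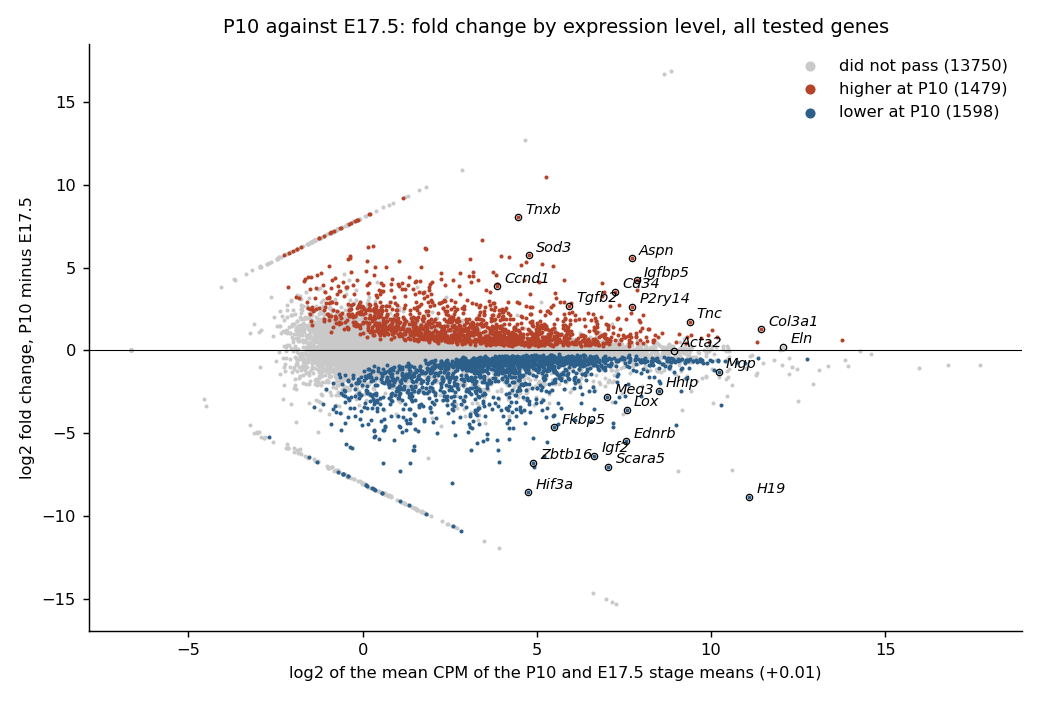
Each point is 1 of 16827 tested genes, with the log2 of its mean CPM plus 0.01 on the x axis and log2 fold change, P10 over E17.5, on the y axis; coloured points passed. H19 lies at the bottom right, an abundant transcript at E17.5 with a log2 fold change of -8.85, while Tnxb, Sod3 and Aspn are labelled among the genes higher at P10; streaks at low level are genes at or near 0 at one stage.

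Transcripts of fetal growth control fell. Of the 19 tested genes on the list of imprinted and growth genes, 14 were lower at P10, where 9.5% of all tested genes were, and the others did not pass. The median log2 fold change of the list was -1.79, beside 0.005 for all genes. H19 (chromosome 7, 142575529 to 142578143, minus strand), an imprinted noncoding RNA, had 13.9, 8.41 and 6.15 CPM at P10, against 3215, 5435 and 4509 CPM at E17.5. It was high in all 3 E17.5 libraries and low in all 3 of P10 (log2 fold change -8.85, SE 0.45, adjusted p = 1.61e-06). Igf2 (chromosome 7, 142650766 to 142666816, minus strand), its neighbour, encodes a fetal growth factor and had 3.03, 1.23 and 2.898 CPM at P10, against 154, 219 and 217 CPM at E17.5. The stages were far apart (log2 fold change -6.35, SE 0.32, adjusted p = 1.61e-06). Dlk1, a secreted or membrane-bound inhibitor of differentiation, had 1.07, 0.906 and 0.61005 CPM at P10, against 114, 53.6 and 51.8 CPM at E17.5 (log2 fold change -6.41, SE 0.71, adjusted p = 0.0002601). The noncoding RNAs of the same imprinted cluster were also lower, Meg3 at 31.9 CPM at P10 and 228 CPM at E17.5 (log2 fold change -2.84, adjusted p = 6.23e-06), Rian at 47.8 CPM at P10 and 324 CPM at E17.5 (log2 fold change -2.76, adjusted p = 0.000253) and Mirg at 2.14 CPM at P10 and 19.5 CPM at E17.5 (log2 fold change -3.19, adjusted p = 0.000961). Smaller differences, still with no overlap between the stages, were those of Peg3 (log2 fold change -1.54, adjusted p = 7.18e-06), Plagl1, a zinc finger factor of the imprinted network (log2 fold change -1.59, adjusted p = 2.71e-05), and Grb10, an adaptor that restrains insulin and IGF receptors (log2 fold change -1.05, adjusted p = 0.000926).

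Genes for RNA-binding proteins that stabilise fetal growth transcripts were lower as well. Igf2bp3 had 0.475, 0.712 and 0.763 CPM at P10, against 16.3, 14.9 and 17.3 CPM at E17.5 (log2 fold change -4.62, SE 0.30, adjusted p = 5.16e-06). Igf2bp2 had 0.891, 0.712 and 0.407 CPM at P10, against 19.3, 16.4 and 15.5 CPM at E17.5 (log2 fold change -4.67, SE 0.53, adjusted p = 0.000183). Both were near 0 at P10 and at 10 CPM or more in each E17.5 library. Igf2bp1 was at 0.119, 0 and 0 CPM at P10, against 13.4, 9.63 and 11.996 CPM at E17.5, and no fold is given because it was listed at 0 in 2 P10 libraries. 4 of 10 tested oncofetal genes were lower. With edgeR 0 was higher, although 2 had an unadjusted p under 0.05 in that direction, and the count was 1 without P10 replicate 2, 2 with DESeq2 and 0 with limma-voom. Terc, the RNA template of telomerase, was listed at 0 in all 3 P10 libraries, against 11.6, 17.7 and 6.62 CPM at E17.5.

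IGF signalling genes changed in both directions. Of 18 tested members, 4 (22.2%) rose and 7 (38.9%) fell, where 8.79% and 9.5% of all tested genes did; 4 fell without both E17.5 replicate 2 and P10 replicate 3. Igf1, the postnatal growth factor, had 231, 121 and 128 CPM at P10, against 307, 514 and 666 CPM at E17.5 (log2 fold change -1.63, SE 0.32, adjusted p = 0.00516), lower at P10 in every library. The call of Igf1 ended without both E17.5 replicate 2 and P10 replicate 3 (adjusted p = 0.0635). The adaptors Irs1 (log2 fold change -0.87, adjusted p = 0.00413) and Irs2 (log2 fold change -0.67, adjusted p = 0.00512), which link the receptors to downstream kinases, were lower too. The call of Irs2 ended without both E17.5 replicate 2 and P10 replicate 3 (adjusted p = 0.0503). Higher at P10 were genes for proteins that bind or free the ligands outside the cell. Igfbp5 (chromosome 1, 72857932 to 72874884, minus strand), a matrix-bound IGF-binding protein, had 357, 468 and 499 CPM at P10, against 17.8, 38.4 and 13.7 CPM at E17.5 (log2 fold change 4.25, SE 0.40, adjusted p = 6.96e-05). Pappa2, a protease that cleaves IGF-binding proteins, had 68.8, 48.5 and 34.9 CPM at P10, against 1.77, 5.74 and 6.83 CPM at E17.5 (log2 fold change 3.40, SE 0.45, adjusted p = 0.000702). The stages did not overlap for either gene, and Igfbp7, a related secreted protein, averaged 107 ± 29.7 CPM at P10 and 29.8 ± 5.15 CPM at E17.5 (log2 fold change 1.84, adjusted p = 0.000399).

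**Figure D2:**
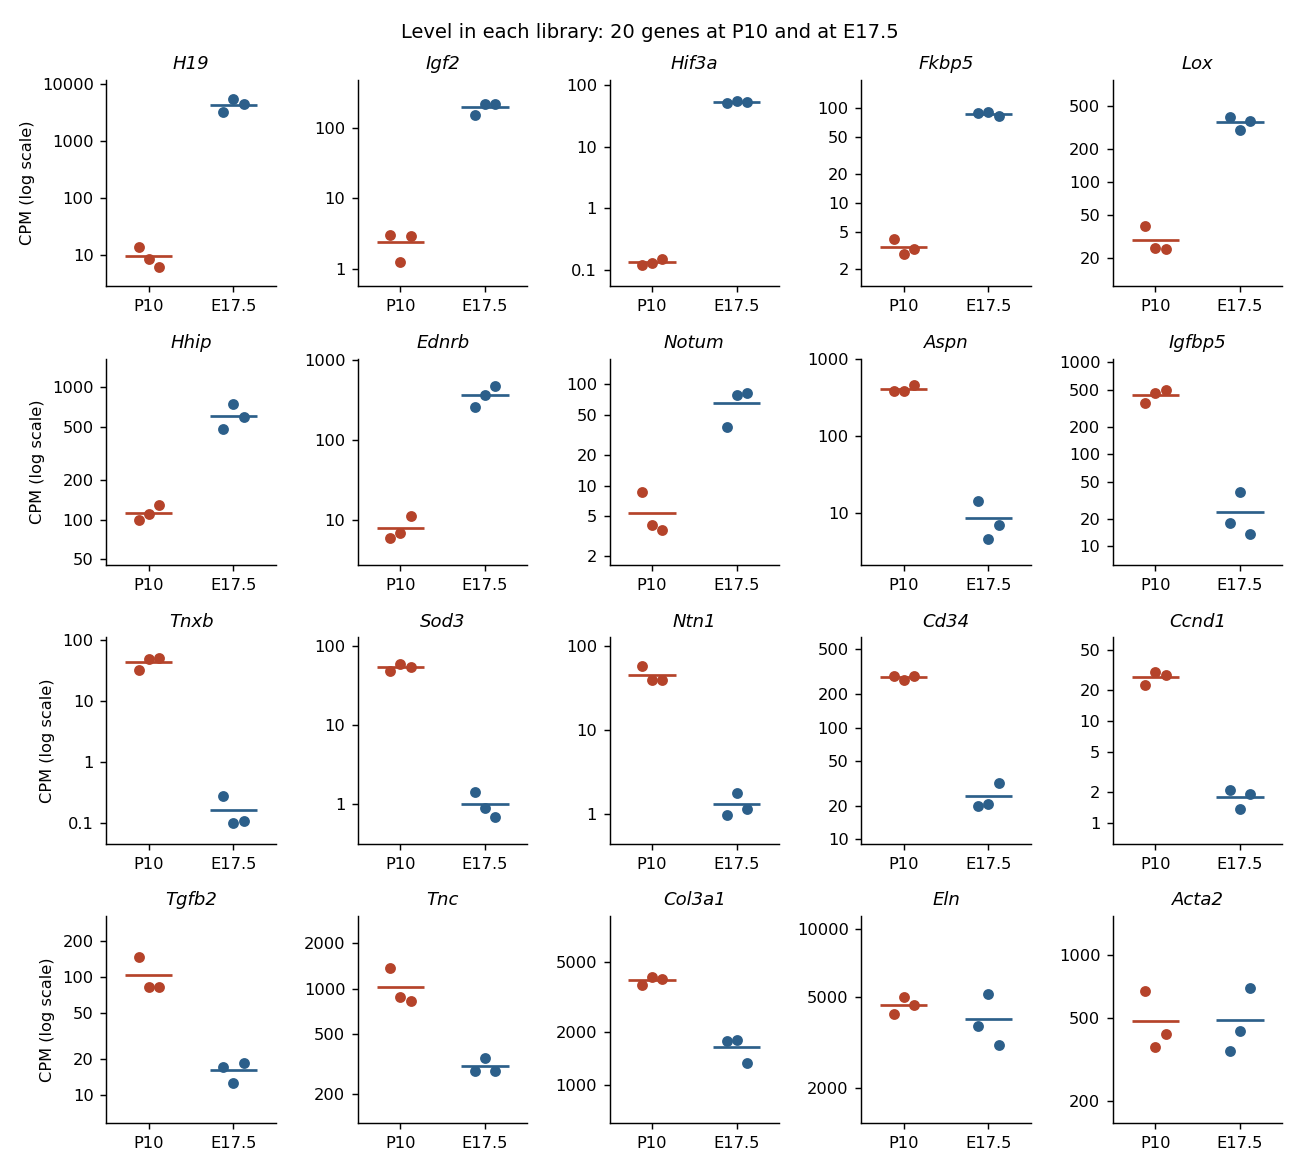
Level in CPM on log axes for 20 genes, with 1 point per library and a bar at the mean of 3; P10 is left and E17.5 right in each panel. The libraries of the 2 stages lie far apart for H19, Igf2 and Cd34, and overlap for Eln and Acta2.

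At both ends of the series a marker of division stood lower than at the stages between them. Mki67, a marker of cycling cells, averaged 85.6 CPM at P3 and 89.1 CPM at P7. It had 47.4, 27.7 and 31.4 CPM at P10, against 21.9, 16.7 and 29.6 CPM at E17.5. P10 replicate 1 was the highest, and the stages overlapped (log2 fold change 0.64, 95% interval 0.16 to 1.12, adjusted p = 0.0682). DESeq2 called it higher at P10 (adjusted p = 0.0198), and so did edgeR when P10 replicate 2 (adjusted p = 0.0486) or E17.5 replicate 3 (adjusted p = 0.0216) was left out. None of 23 tested mitosis genes passed edgeR's test in either direction, with a median log2 fold change of 0.34. At an unadjusted p under 0.05, 2 were higher and 0 lower, and DESeq2 called 1 higher and limma-voom 0. In the same list 2 were higher without E17.5 replicate 3 and 2 without P10 replicate 2, and 1 was lower without E17.5 replicate 2. Of 25 replication genes 4 were higher, where 8.79% of all tested genes were, and the others did not pass. The count was 2 without P10 replicate 1, 1 with only the 6 libraries compared and 0 against a minimum fold of 1.5. Pola1, a subunit of the polymerase that starts new strands, averaged 5.84 ± 0.871 CPM at P10 and 3.09 ± 0.537 CPM at E17.5 (log2 fold change 0.91, SE 0.16, adjusted p = 0.00345).

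The cyclins and inhibitors that govern entry into the cycle did differ, 6 higher and 4 lower of 17. Ccnd1 (chromosome 7, 144929931 to 144939925, minus strand), a D-type cyclin that drives cells out of the first phase of the cycle, had 22.4, 30.02 and 28.4 CPM at P10, against 2.11, 1.36 and 1.93 CPM at E17.5 (log2 fold change 3.88, SE 0.22, adjusted p = 2.49e-06). Ccnd2 had 103, 81.2 and 84.7 CPM at P10, against 23.04, 16.3 and 19.7 CPM at E17.5 (log2 fold change 2.19, SE 0.14, adjusted p = 5.16e-06). Neither cyclin overlapped between the stages, and both means at P10 were near those at P3 (24.5 and 84.2 CPM) and P7 (27.3 and 83.7 CPM). Ccnd3 went the other way, at 48.1 CPM at P10 and 89.6 CPM at E17.5 (log2 fold change -0.90, adjusted p = 0.00325). Among inhibitors, Cdkn1c (p57), itself imprinted, had 31.4, 30.2 and 28.98 CPM at P10, against 108, 93.5 and 112 CPM at E17.5 (log2 fold change -1.79, SE 0.09, adjusted p = 1.63e-06), and Cdkn2c (p18) was higher at P10, with 14.8, 15.98 and 17.54 CPM at P10, against 5.097, 4.96 and 5.16 CPM at E17.5 (log2 fold change 1.67, SE 0.13, adjusted p = 1.58e-05).

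Genes of fibrillar collagens and their processing were higher at P10 more often than lower, 9 against 3 of 21 tested members, with a median of 0.62. Col3a1 (chromosome 1, 45311538 to 45349706, plus strand), the main chain of type III fibrils, had 3692, 4114 and 3983 CPM at P10, against 1763, 1789 and 1332 CPM at E17.5 (log2 fold change 1.27, SE 0.13, adjusted p = 8.98e-05). Col1a1 had 994, 874 and 827 CPM at P10, against 543, 458 and 432 CPM at E17.5 (log2 fold change 0.91, SE 0.13, adjusted p = 0.000859). Each P10 library stood above each E17.5 library for both. Col5a1, which nucleates fibrils, averaged 377 ± 46.8 CPM at P10 and 145 ± 3.44 CPM at E17.5 (log2 fold change 1.38, adjusted p = 2.32e-05), and Col12a1, which lies on the fibril surface, 88.8 ± 31.8 CPM at P10 and 22.5 ± 2.73 CPM at E17.5 (log2 fold change 1.98, adjusted p = 0.0002001). Genes for enzymes that trim the collagen precursors moved in both directions. Adamts2 was higher at 124 CPM at P10 and 54.8 CPM at E17.5 (log2 fold change 1.18, adjusted p = 0.000322). Pcolce, which encodes an enhancer of precursor trimming by other enzymes, was higher too (log2 fold change 1.08, adjusted p = 0.003001). Adamts14 was lower, at 5.88, 5.43 and 4.68 CPM at P10, against 64.4, 106 and 76.2 CPM at E17.5 (log2 fold change -3.94, SE 0.24, adjusted p = 4.24e-06). Col11a1, a minor fibril chain, was also lower, at 0.622 CPM at P10 and 6.94 CPM at E17.5 (log2 fold change -3.46, adjusted p = 9.98e-05).

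Elastic fibre genes moved in both directions, 6 higher and 9 lower of 21 (5 lower without P10 replicate 2, and 5 with only the 6 libraries compared), with a median of -0.084. Elastin did not pass. Eln (chromosome 5, 134702593 to 134747323, minus strand) had 4236, 5016 and 4648 CPM at P10, against 3750.1, 5172 and 3080.2 CPM at E17.5, overlapping (log2 fold change 0.21, 95% interval -0.31 to 0.74, adjusted p = 0.591). Genes for the enzymes that cross-link elastin and collagen moved apart. Lox (chromosome 18, 52516067 to 52529867, minus strand) had 39.5, 24.8 and 24.5 CPM at P10, against 393, 298 and 366 CPM at E17.5 (log2 fold change -3.57, SE 0.20, adjusted p = 2.49e-06). Loxl1 had 180.2, 151 and 148 CPM at P10, against 53.1, 27.5 and 23.1 CPM at E17.5 (log2 fold change 2.21, SE 0.27, adjusted p = 0.000292). Loxl2 had 548, 306 and 296 CPM at P10, against 79.8, 111 and 134 CPM at E17.5 (log2 fold change 1.82, SE 0.25, adjusted p = 0.000679). Lox was thus the lower at P10 and both Lox-like genes the higher, with no overlap in any of the 3. Of the microfibril genes on which elastin is laid, Fbn1 was higher (341 ± 20.9 CPM at P10 and 230.1 ± 24.8 CPM at E17.5, log2 fold change 0.57, adjusted p = 0.00447). The microfibril-associated gene Mfap5 was higher too (10.03 CPM at P10 and 2.83 CPM at E17.5, log2 fold change 1.81, adjusted p = 0.00715). Mfap4 was lower, with 165, 182 and 176 CPM at P10, against 1636, 658 and 527 CPM at E17.5 (log2 fold change -2.43, adjusted p = 0.00374). Of the latent TGF-beta binding protein genes Ltbp2 was higher (log2 fold change 0.99, adjusted p = 0.00272) while Ltbp1 (log2 fold change -0.99, adjusted p = 0.00365) and Ltbp4 (log2 fold change -0.94, adjusted p = 0.00366) were lower. Fbln1, a fibulin, averaged 78.03 CPM at P10 and 159.6 CPM at E17.5 (log2 fold change -1.03, adjusted p = 0.00131). The call of Ltbp4 ended without both E17.5 replicate 2 and P10 replicate 3 (adjusted p = 0.05204).

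Basement membrane genes were lower more often than higher, 12 against 2 of 20, with a median of -0.49; 7 were lower without P10 replicate 2, 6 without P10 replicate 3 and 6 with only the 6 libraries compared. Lamc1, the common laminin gamma chain, had 411, 319 and 312 CPM at P10, against 657, 932 and 725 CPM at E17.5 (log2 fold change -1.15, SE 0.14, adjusted p = 0.0003605). Lamc3, a gamma chain of more restricted use, had 5.58, 2.65 and 2.999 CPM at P10, against 25.2, 72.4 and 38.6 CPM at E17.5 (log2 fold change -3.60, SE 0.44, adjusted p = 0.000355). Both were lower in every P10 library. Col4a5, a collagen IV chain, averaged 8.22 CPM at P10 and 30.98 CPM at E17.5 (log2 fold change -1.91, adjusted p = 3.23e-05). Col4a6, its partner in the same network, averaged 1.14 CPM at P10 and 4.29 CPM at E17.5 (log2 fold change -1.90, adjusted p = 0.000743). Nid2, a linker of laminin and collagen IV, was lower too (log2 fold change -1.52, adjusted p = 0.00125). The exceptions were Hspg2, which encodes perlecan (40.4 ± 2.48 CPM at P10 and 22.99 ± 3.17 CPM at E17.5, log2 fold change 0.81, adjusted p = 0.000507), and Sparc, a collagen-binding protein (1273 ± 87.2 CPM at P10 and 669.9 ± 27.4 CPM at E17.5, log2 fold change 0.93, adjusted p = 0.000265), both higher at P10.

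Matricellular genes, which tune how cells hold the matrix, were higher in 7 and lower in 4 of 16 cases, with a median of -0.14. Their summed level was 5502, 3853 and 3641 CPM at P10, against 7255, 7295 and 5360 CPM at E17.5. Tnc, tenascin C, had 1369, 883 and 832 CPM at P10, against 286, 346 and 285 CPM at E17.5 (log2 fold change 1.75, SE 0.18, adjusted p = 9.98e-05). Thbs2, a thrombospondin, had 113, 128 and 143 CPM at P10, against 34.6, 38.1 and 30.7 CPM at E17.5 (log2 fold change 1.89, SE 0.17, adjusted p = 3.33e-05). Tnxb, tenascin X (chromosome 17, 34670535 to 34719815, plus strand), was close to absent at E17.5, with 32.7, 49.3 and 50.6 CPM at P10, against 0.272, 0.0973 and 0.104 CPM at E17.5 (log2 fold change 8.05, SE 0.45, adjusted p = 2.49e-06). Tnxb had a log2 fold change of 8.66 without E17.5 replicate 1. All P10 libraries were above all E17.5 libraries for these 3 genes. Sparcl1, which resembles Sparc, was lower at 672 CPM at P10 and 1495 CPM at E17.5 (log2 fold change -1.15, adjusted p = 0.000729), as was Mgp, an inhibitor of mineral deposition in matrix, at 684 CPM at P10 and 1690.1 CPM at E17.5 (log2 fold change -1.31, adjusted p = 0.0161). The call of Mgp ended without any one of E17.5 replicate 2 or P10 replicates 2 or 3 (adjusted p between 0.0549 and 0.0662). It also ended without both E17.5 replicate 2 and P10 replicate 3 (adjusted p = 0.1599). Among 21 proteoglycan genes 5 were higher and 2 lower (1 lower without P10 replicate 1, and 1 without P10 replicate 2). Aspn, which encodes the small leucine-rich protein asporin, had 384, 391 and 466 CPM at P10, against 14.5, 4.67 and 6.99 CPM at E17.5 (log2 fold change 5.56, SE 0.39, adjusted p = 8.86e-06). Has2, which makes hyaluronan, had 0.831, 0.259 and 0.356 CPM at P10, against 20.05, 24.04 and 20.2 CPM at E17.5 (log2 fold change -5.45, SE 0.36, adjusted p = 5.68e-06). Has2 had a log2 fold change of -6.08 without P10 replicate 1. The 2 genes moved in opposite directions and neither overlapped. Of the 23 protease and inhibitor genes, 6 were higher and 3 lower, among them Adamts12 (52.6 CPM at P10 and 15.6 CPM at E17.5, log2 fold change 1.76, adjusted p = 0.00355) and the inhibitor Timp2 (211 CPM at P10 and 109 CPM at E17.5, log2 fold change 0.95, adjusted p = 0.000322) on the higher side and the gelatinase Mmp2 (284 CPM at P10 and 686 CPM at E17.5, log2 fold change -1.28, adjusted p = 0.000265) and Adamtsl2 (21.9 CPM at P10 and 136 CPM at E17.5, log2 fold change -2.63, adjusted p = 0.000572) on the lower. The call of Adamts12 ended without both E17.5 replicate 2 and P10 replicate 3 (adjusted p = 0.0505).

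Markers that define crest myofibroblasts were present at both stages and moved in both directions. Of 17 tested markers 7 were higher at P10 and 3 lower, with a median of 0.36. Their summed level lay between 4917 and 5752 CPM at P10, against 2857 CPM in E17.5 replicate 1 and 4745 and 4899 CPM in the other E17.5 libraries. Mustn1, a small nuclear protein of muscle and bone, had 187, 243 and 246 CPM at P10, against 16.04, 26.4 and 16.4 CPM at E17.5 (log2 fold change 3.52, SE 0.27, adjusted p = 1.40e-05). P2ry14, a receptor for UDP-glucose, had 345, 381 and 376 CPM at P10, against 34.8, 51.8 and 90.3 CPM at E17.5 (log2 fold change 2.64, SE 0.32, adjusted p = 0.000265). Egfem1 averaged 517 ± 49.1 CPM at P10 and 249.8 ± 69.8 CPM at E17.5 (log2 fold change 1.05, adjusted p = 0.00233). These were higher at P10 with no overlap. Ednrb, the endothelin B receptor (chromosome 14, 103814625 to 103844402, minus strand), was the reverse, with 6.06, 7.05 and 11.3 CPM at P10, against 258, 367 and 479.7 CPM at E17.5 (log2 fold change -5.49, SE 0.39, adjusted p = 1.06e-05). Hhip, an inhibitor that binds hedgehog ligands, had 99.3, 109 and 129.8 CPM at P10, against 483, 751 and 593 CPM at E17.5 (log2 fold change -2.43, SE 0.17, adjusted p = 7.81e-06).

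Contractile genes gave 5 higher and 4 lower of 25. The higher count was 3 without any one of E17.5 replicate 2, P10 replicate 1 or P10 replicate 3, and the lower count was 8 without P10 replicate 1. With only the 6 libraries compared, 2 were higher and 2 lower. Des, the muscle intermediate filament desmin, had 92.4, 78.9 and 85.1 CPM at P10, against 34.2, 56.6 and 36.9 CPM at E17.5 (log2 fold change 1.01, SE 0.21, adjusted p = 0.00862). Actn1, an actin cross-linker, averaged 235 ± 24.6 CPM at P10 and 123 ± 24.7 CPM at E17.5 (log2 fold change 0.93, adjusted p = 0.000926) and Cald1, caldesmon, 1461 ± 192 CPM at P10 and 837 ± 164 CPM at E17.5 (log2 fold change 0.80, adjusted p = 0.00475). Mylk, the kinase that triggers smooth muscle contraction, was lower at 209.9 ± 4.36 CPM at P10 and 341 ± 17.02 CPM at E17.5 (log2 fold change -0.70, adjusted p = 0.0001704), as was Cnn2, calponin 2 (75.3 ± 18.2 CPM at P10 and 172 ± 8.64 CPM at E17.5, log2 fold change -1.19, adjusted p = 0.000555). Myh11, the smooth muscle myosin, had 468, 238 and 271 CPM at P10, against 344, 511 and 693 CPM at E17.5 and did not pass (95% interval -1.28 to -0.04, adjusted p = 0.133); without P10 replicate 1 it passed as lower (log2 fold change -1.02, adjusted p = 0.0237). The call of Cald1 ended with only the 6 libraries compared (adjusted p = 0.0542).

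Alveolar fibroblast markers were lower, 10 of 18 against 1 higher, with a median of -2.42. The count was 3 with only the 6 libraries compared, 6 without P10 replicate 1 and 6 without P10 replicate 3. The summed marker level was 426, 459.9 and 465 CPM at P10, below all 3 E17.5 libraries, of which E17.5 replicate 1 was the highest. Tcf21, a transcription factor of lung fibroblasts, had 20.6, 12.4 and 13.8 CPM at P10, against 359, 96.2 and 93.6 CPM at E17.5 (log2 fold change -3.55, SE 0.57, adjusted p = 0.00239). Tcf21 had a log2 fold change of -2.61 without E17.5 replicate 1. Lpl, lipoprotein lipase, went against the list, with 63.2, 38.5 and 43.3 CPM at P10, against 7.88, 6.13 and 9.597 CPM at E17.5 (log2 fold change 2.61, SE 0.22, adjusted p = 2.74e-05). Without E17.5 replicate 1, 7 of the markers were lower.

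A pair of surface markers of other mesenchyme were higher at P10. Cd34 (chromosome 1, 194938819 to 194961279, plus strand), a sialomucin of adventitial fibroblasts and endothelium, had 290.1, 263 and 287 CPM at P10, against 19.98, 20.7 and 32.02 CPM at E17.5 (log2 fold change 3.53, SE 0.21, adjusted p = 3.21e-06), while 3 of 15 adventitial markers were higher and 2 lower. Sfrp2, a secreted Wnt antagonist on that list, had 1.01, 0.841 and 0.813 CPM at P10, against 21.5, 42.3 and 44.1 CPM at E17.5 (log2 fold change -5.33, SE 0.36, adjusted p = 6.54e-06). Pdgfrb, the beta PDGF receptor, had 84.96, 83.1 and 85.1 CPM at P10, against 30.99, 41.3 and 22.9 CPM at E17.5 (log2 fold change 1.41, SE 0.20, adjusted p = 0.000681). Other pericyte markers fell, 7 of 16 against 1 higher (2 higher without E17.5 replicate 1, and 2 without E17.5 replicate 2). Cspg4, the NG2 proteoglycan, had 4.93, 5.76 and 5.29 CPM at P10, against 29.6, 39.1 and 26.4 CPM at E17.5 (log2 fold change -2.57, SE 0.16, adjusted p = 4.27e-06), Gucy1b3, a subunit of the nitric oxide receptor, 31.1 CPM at P10 and 86.4 CPM at E17.5 (log2 fold change -1.48, adjusted p = 0.000794) and Notch3 4.72 CPM at P10 and 10.9 CPM at E17.5 (log2 fold change -1.21, adjusted p = 0.007999).

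**Figure D3:**
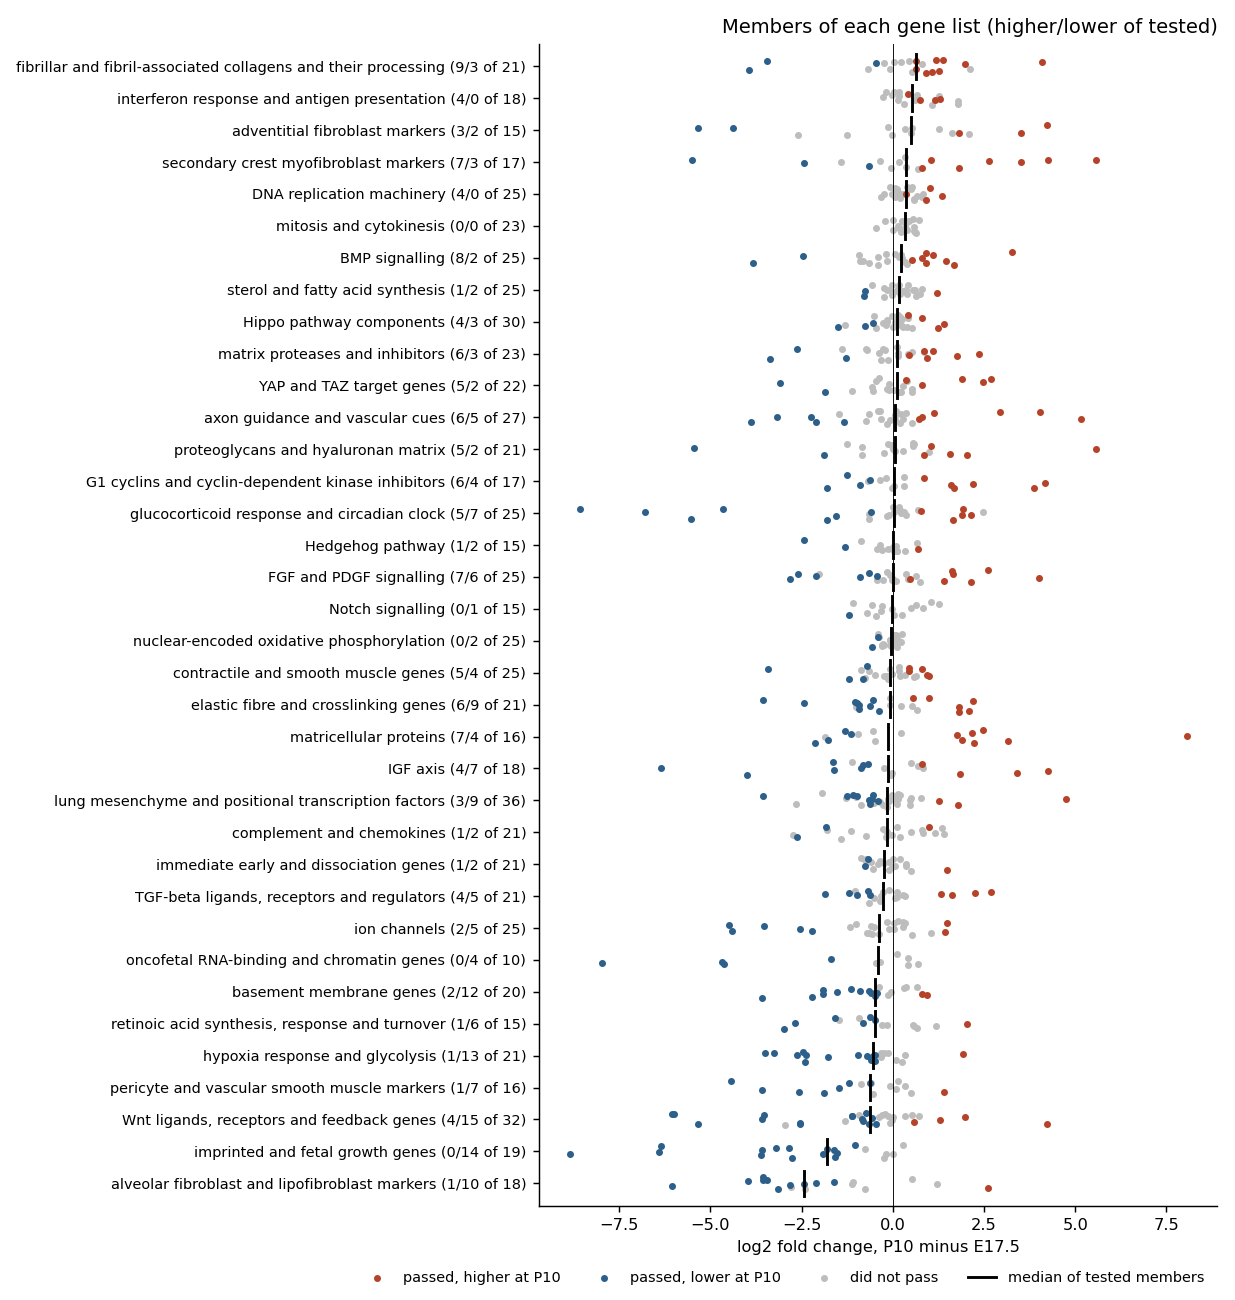
Each row is a gene list and each point a tested member, placed at its log2 fold change, P10 over E17.5, with a black bar at the list median. Fetal growth (median -1.79) and alveolar fibroblast genes (-2.42) lie to the left, and fibrillar collagen genes (0.62) lie to the right.

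No difference was detected in the transcripts of the Hippo coactivators. Yap1 had 65.8, 54.02 and 54.3 CPM at P10, against 58.3, 61.3 and 56.7 CPM at E17.5 (95% interval -0.25 to 0.21, adjusted p = 0.937). Wwtr1, which encodes TAZ, had 80.2, 52.3 and 52.4 CPM at P10, against 60.5, 58.7 and 42.7 CPM at E17.5 (95% interval -0.26 to 0.64, adjusted p = 0.566). Neither passed, and the sign of Yap1 turned under upper-quartile scaling, without E17.5 replicate 2, without P10 replicate 2 and without P10 replicate 3, and that of Wwtr1 without P10 replicate 1. Of 30 tested pathway genes 4 (13.3%) were higher and 3 (10%) lower, near the 8.79% and 9.5% of all tested genes. Amotl1, a scaffold that binds YAP, had 86.2, 86.8 and 86.1 CPM at P10, against 29.1, 32.8 and 35.8 CPM at E17.5 (log2 fold change 1.41, SE 0.09, adjusted p = 5.37e-06), and Frmd6, an upstream membrane protein, 29.4 CPM at P10 and 12.5 CPM at E17.5 (log2 fold change 1.23, adjusted p = 0.00143). Limd1, which holds back the kinases LATS, was lower at 12.6, 12.6 and 13.01 CPM at P10, against 46.8, 31.2 and 29.5 CPM at E17.5 (log2 fold change -1.49, SE 0.17, adjusted p = 0.000171). The stages did not overlap for Amotl1 or Limd1.

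Genes known as targets of YAP with TEAD factors gave 5 (22.7%) higher and 2 (9.09%) lower of 22, beside 8.79% and 9.5% of all tested genes. The higher count was 3 without P10 replicate 1, and 1 was lower without any one of E17.5 replicate 2, P10 replicate 2 or P10 replicate 3. Ctgf (Ccn2), a secreted matricellular protein, had 350.1, 211 and 188 CPM at P10, against 41.7, 82.9 and 77.1 CPM at E17.5 (log2 fold change 1.89, SE 0.44, adjusted p = 0.0149). The call of Ctgf ended without any one of E17.5 replicate 1 or P10 replicate 1 (adjusted p between 0.05002 and 0.0543). It also ended without both E17.5 replicate 2 and P10 replicate 3 (adjusted p = 0.05003). Cyr61 (Ccn1), its relative, did not pass, with 546, 545 and 599 CPM at P10, against 776, 603 and 512 CPM at E17.5 (log2 fold change -0.16, 95% interval -0.93 to 0.60, adjusted p = 0.793); its sign turned without E17.5 replicate 1. Ankrd1, another target, was too low to be tested, at 1.66, 0.518 and 0.356 CPM at P10, against 0.068, 0 and 0 CPM at E17.5. Crim1, a membrane protein that binds BMPs, had 31.8, 27.1 and 28.4 CPM at P10, against 16.04, 17.6 and 16.5 CPM at E17.5 (log2 fold change 0.80, SE 0.09, adjusted p = 0.000243). Myof, myoferlin, averaged 9.85 CPM at P10 and 1.75 CPM at E17.5 (log2 fold change 2.48, adjusted p = 0.000353).

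The TEAD motif GGAATG was searched on both strands, where it reads CATTCC on the other. It was looked for in the RefSeq windows from 250 bases before to 50 after each gene's start on GRCm38.p6. Of the 23 target genes 17 had windows, and 9 of their 19 windows (47.4%) held it, against 14.7% of all 32851 windows. The windows of Crim1, which passed, and Cyr61, which did not, are printed 5′ to 3′ on the gene's strand with the motif in capitals, as a member that rose and one that did not. Of the 4 targets that rose and had a window, Crim1 was the only one that held the motif. The other 8 targets with the motif did not pass or, for Ankrd1, were not tested. Crim1 lies at chr17:78199998-78200297 (plus strand) and Cyr61 at chr3:145649936-145650235 (minus strand).
Crim1: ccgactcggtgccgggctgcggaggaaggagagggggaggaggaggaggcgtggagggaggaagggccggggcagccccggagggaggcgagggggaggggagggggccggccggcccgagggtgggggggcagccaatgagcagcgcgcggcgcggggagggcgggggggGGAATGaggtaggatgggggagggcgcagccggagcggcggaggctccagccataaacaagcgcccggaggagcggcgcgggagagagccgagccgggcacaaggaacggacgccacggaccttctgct
Cyr61: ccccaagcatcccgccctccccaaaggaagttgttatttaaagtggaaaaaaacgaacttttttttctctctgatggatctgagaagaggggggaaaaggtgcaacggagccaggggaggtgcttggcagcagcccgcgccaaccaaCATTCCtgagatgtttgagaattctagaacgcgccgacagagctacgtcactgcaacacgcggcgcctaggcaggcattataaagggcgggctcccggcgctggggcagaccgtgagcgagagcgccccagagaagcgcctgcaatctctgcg
A match shows only that these letters occur in the window.

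Of the TGF-beta genes 4 were higher and 5 lower of 21. The ligands Tgfb2 and Tgfb3 were higher, Tgfb2 with 149, 81.7 and 82.3 CPM at P10, against 17.3, 12.7 and 18.6 CPM at E17.5 (log2 fold change 2.68, SE 0.24, adjusted p = 3.53e-05) and Tgfb3 with 131, 154 and 156 CPM at P10, against 23.99, 32.4 and 36.1 CPM at E17.5 (log2 fold change 2.25, SE 0.16, adjusted p = 1.06e-05). Neither overlapped between the stages. Among receptors, Tgfbr2 (46.2 CPM at P10 and 73.7 CPM at E17.5, log2 fold change -0.67, adjusted p = 0.0004705) and the co-receptor Tgfbr3 (131 CPM at P10 and 299.6 CPM at E17.5, log2 fold change -1.20, adjusted p = 0.000391) were lower, and the co-receptor Eng (190.4 CPM at P10 and 61.7 CPM at E17.5, log2 fold change 1.63, adjusted p = 0.000275) was higher with the transducer Smad3 (77.1 CPM at P10 and 30.6 CPM at E17.5, log2 fold change 1.33, adjusted p = 0.000388). For BMP, 8 of 25 were higher and 2 lower (4 lower without E17.5 replicate 1). Bmp5 (73.4 CPM at P10 and 39.4 CPM at E17.5, log2 fold change 0.90, adjusted p = 0.001802), Bmp4 (58.3 CPM at P10 and 31.3 CPM at E17.5, log2 fold change 0.90, adjusted p = 0.0107) and Bmp2 (22.9 CPM at P10 and 8.404 CPM at E17.5, log2 fold change 1.45, adjusted p = 0.00249) were higher, while Bmp6 had 0.772, 1.29 and 1.63 CPM at P10, against 15.6, 22.1 and 15.4 CPM at E17.5 (log2 fold change -3.83, SE 0.31, adjusted p = 1.82e-05) and Gdf10, a related ligand, 29.3, 27.8 and 26.3 CPM at P10, against 139, 155 and 165 CPM at E17.5 (log2 fold change -2.46, SE 0.15, adjusted p = 4.58e-06). The call of Bmp4 ended without both E17.5 replicate 2 and P10 replicate 3 (adjusted p = 0.0718).

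Wnt pathway genes were lower far more often, 15 of 32 tested against 4 higher, with a median of -0.62; 2 were higher with only the 6 libraries compared, and 8 lower without both E17.5 replicate 2 and P10 replicate 3. Notum, a secreted enzyme that inactivates Wnt and is itself a Wnt target, had 8.55, 4.08 and 3.61 CPM at P10, against 38.1, 77.6 and 80.9 CPM at E17.5 (log2 fold change -3.60, SE 0.41, adjusted p = 0.000249). Axin2, a feedback inhibitor that reads out Wnt activity, had 46.3, 59.01 and 54.8 CPM at P10, against 80.5, 92.8 and 109.6 CPM at E17.5 (log2 fold change -0.82, SE 0.16, adjusted p = 0.00561). Both were lower in all P10 libraries, as were Nkd1 (46.7 CPM at P10 and 102 CPM at E17.5, log2 fold change -1.13, adjusted p = 0.000627), Lrp5, a Wnt co-receptor (27.05 CPM at P10 and 48.7 CPM at E17.5, log2 fold change -0.85, adjusted p = 0.000143), and the factor Tcf7 (52.8 CPM at P10 and 83.5 CPM at E17.5, log2 fold change -0.66, adjusted p = 0.00938). The call of Tcf7 ended with only the 6 libraries compared (adjusted p = 0.0632) and without both E17.5 replicate 2 and P10 replicate 3 (adjusted p = 0.0816). Wnt11, a ligand of the arm that does not use beta-catenin, had 145, 172 and 171 CPM at P10, against 23.9, 52.5 and 47.8 CPM at E17.5 (log2 fold change 1.97, SE 0.27, adjusted p = 0.000609). Wnt4 had 6.12, 5.43 and 4.83 CPM at P10, against 0.272, 0.487 and 0.156 CPM at E17.5 (log2 fold change 4.21, SE 0.40, adjusted p = 6.35e-05). Both were higher in every P10 library. Wnt2, a ligand of fibroblasts, averaged 0.252 CPM at P10 and 16.95 CPM at E17.5 (log2 fold change -6.04, adjusted p = 0.001296); E17.5 replicate 1, at 38.9 CPM, had the highest level, as it did for fibroblast markers. The call of Wnt2 ended with limma-voom (adjusted p = 0.165). Wnt2 had a log2 fold change of -4.54 without E17.5 replicate 1. In hedgehog signalling, 1 of 15 was higher and 2 were lower (2 and 4 without E17.5 replicate 1): Boc, a co-receptor, averaged 30.9 CPM at P10 and 75.9 CPM at E17.5 (log2 fold change -1.30, adjusted p = 0.000119) and Gli3, a repressor of targets, 36.9 CPM at P10 and 22.98 CPM at E17.5 (log2 fold change 0.69, adjusted p = 0.000607).

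Among growth factor pathways, 7 FGF and PDGF genes were higher and 6 lower of 25 (3, 2 and 3 lower without P10 replicates 1, 2 and 3, and 2 with only the 6 libraries compared). Etv4, a factor that FGF signalling induces, had 22.2, 21.1 and 28.4 CPM at P10, against 4.35, 1.85 and 5.32 CPM at E17.5 (log2 fold change 2.60, SE 0.30, adjusted p = 0.000209). Etv5, a related factor, had 13.5, 20.1 and 18.9 CPM at P10, against 5.57, 6.03 and 5.32 CPM at E17.5 (log2 fold change 1.64, SE 0.15, adjusted p = 4.21e-05), and neither overlapped. Fgf7, a ligand for epithelial receptors, was lower (25.6 CPM at P10 and 47.3 CPM at E17.5, log2 fold change -0.89, adjusted p = 0.000663), and Pdgfrl, a receptor-like gene, was higher (60.7 CPM at P10 and 13.8 CPM at E17.5, log2 fold change 2.14, adjusted p = 2.31e-06). For Notch, 1 of 15 was lower and the others did not pass. The counts changed to 3 higher and 2 lower without E17.5 replicate 1, to 1 higher without P10 replicate 1 and to 2 lower without P10 replicate 2. Retinoid genes were lower in 6 and higher in 1 of 15 cases (0 higher without any one of the 10 libraries other than E17.5 replicate 1 and P10 replicate 2 and with only the 6 libraries compared, and 2 lower without both E17.5 replicate 2 and P10 replicate 3), with Aldh1a1, which makes retinoic acid, at 9.91, 7.76 and 6.41 CPM at P10, against 45.6, 82.2 and 63.8 CPM at E17.5 (log2 fold change -2.99, SE 0.25, adjusted p = 2.64e-05) and Rara, its receptor, at 30.5 CPM at P10 and 53.9 CPM at E17.5 (log2 fold change -0.82, adjusted p = 0.00704). The call of Rara ended without both E17.5 replicate 2 and P10 replicate 3 (adjusted p = 0.0621).

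Axon guidance genes, which also steer non-neural cells, gave 6 higher and 5 lower of 27. Ntn1 (chromosome 11, 68209364 to 68400823, minus strand), netrin 1, had 57.1, 38.8 and 39.1 CPM at P10, against 0.951, 1.75 and 1.15 CPM at E17.5 (log2 fold change 5.16, SE 0.31, adjusted p = 3.21e-06), and one of its receptors, Unc5b, had 47.9, 32.5 and 34.6 CPM at P10, against 4.69, 6.33 and 4.22 CPM at E17.5 (log2 fold change 2.93, SE 0.19, adjusted p = 4.98e-06). Both were higher at P10 in each library. The related receptor Unc5c went the other way, with 0.831, 1.36 and 1.53 CPM at P10, against 37.9, 9.05 and 8.14 CPM at E17.5 (log2 fold change -3.88, adjusted p = 0.00242). Of 36 transcription factors 3 were higher and 9 lower. Foxp1, a forkhead repressor, had 211, 143 and 132 CPM at P10, against 35.8, 58.4 and 46.3 CPM at E17.5 (log2 fold change 1.79, SE 0.21, adjusted p = 0.000205), and Zeb1, a mesenchymal zinc finger factor, 61.1 CPM at P10 and 25.3 CPM at E17.5 (log2 fold change 1.27, adjusted p = 0.000536). Twist1 averaged 17.46 CPM at P10 and 0.574 CPM at E17.5 (log2 fold change 4.75, adjusted p = 0.00128), while Tbx3, a T-box factor of lung mesenchyme, fell with 56.9, 49.4 and 47.1 CPM at P10, against 90.9, 141 and 134 CPM at E17.5 (log2 fold change -1.26, SE 0.17, adjusted p = 0.000522). Twist1 had a log2 fold change of 7.08 without E17.5 replicate 3. Without both E17.5 replicate 2 and P10 replicate 3, 3 of the factors were lower. Among 25 channel genes, Cacna1g, a T-type calcium channel, was lower (26.9 CPM at P10 and 125 CPM at E17.5, log2 fold change -2.21, adjusted p = 1.80e-05) and Cacna1c, the L-type channel of smooth muscle, higher (56.1 CPM at P10 and 20.97 CPM at E17.5, log2 fold change 1.42, adjusted p = 1.06e-05), in a list with 2 higher and 5 lower (3 lower with only the 6 libraries compared).

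Several genes known to respond to glucocorticoids were much lower at P10, Hif3a and Zbtb16 being among the 12 lowest fold changes chosen by rule. Fkbp5 (chromosome 17, 28399094 to 28517527, minus strand), a chaperone induced by the hormone receptor, had 4.22, 2.91 and 3.25 CPM at P10, against 88.5, 90.6 and 81.8 CPM at E17.5 (log2 fold change -4.65, SE 0.22, adjusted p = 1.61e-06). Zbtb16, a zinc finger factor induced likewise, had 0.297, 0.582 and 0.661 CPM at P10, against 60.2, 62.3 and 52.6 CPM at E17.5 (log2 fold change -6.80, SE 0.43, adjusted p = 4.71e-06). Hif3a, of the hypoxia-inducible factor family, had 0.119, 0.129 and 0.153 CPM at P10, against 51.6, 56.3 and 53.98 CPM at E17.5 (log2 fold change -8.57, SE 0.42, adjusted p = 1.61e-06). For each of the 3, every P10 library was under 5 CPM and every E17.5 library over 50. The receptor gene Nr3c1 differed far less, at 81.5 CPM at P10 and 124 CPM at E17.5 (log2 fold change -0.61, adjusted p = 0.00394). Clock genes stood on both sides, Per2 lower (8.96, 10.6 and 9.81 CPM at P10, against 29.3, 39.9 and 34.01 CPM at E17.5; log2 fold change -1.81, SE 0.21, adjusted p = 0.000243) and Nr1d2 (28.4, 32.8 and 30.8 CPM at P10, against 5.71, 7.396 and 7.82 CPM at E17.5; log2 fold change 2.13, SE 0.16, adjusted p = 1.57e-05), Per3 (16.7 CPM at P10 and 4.43 CPM at E17.5, log2 fold change 1.91, adjusted p = 0.000427) and Dbp (9.63 CPM at P10 and 2.53 CPM at E17.5, log2 fold change 1.92, adjusted p = 0.00899) higher. The call of Dbp ended without both E17.5 replicate 2 and P10 replicate 3 (adjusted p = 0.0866). The labels do not give the hour of collection, so age and time of day cannot be told apart for these genes. Of the 25 genes on the combined glucocorticoid and clock list, 5 were higher, 7 lower and 13 did not pass, with a median of 0.038. The higher count was 3 without any one of P7 replicate 3, P10 replicate 2 or P10 replicate 3, and 3 with only the 6 libraries compared.

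Hypoxia and glycolysis genes were lower at P10, 13 of 21 against 1 higher, with a median of -0.56; the count was 8 without P10 replicate 2, 7 without P10 replicate 3 and 8 with only the 6 libraries compared. Bnip3 (chromosome 7, 138890836 to 138909519, minus strand), a mitophagy receptor, had 29.9, 30.2 and 31.4 CPM at P10, against 164, 198 and 142 CPM at E17.5 (log2 fold change -2.46, SE 0.13, adjusted p = 1.96e-06). Slc2a1, the glucose transporter GLUT1, had 2.97, 2.14 and 1.78 CPM at P10, against 27.9, 24.2 and 14.2 CPM at E17.5 (log2 fold change -3.27, SE 0.36, adjusted p = 0.0001499). Hk2, hexokinase 2, had 2.97, 1.94 and 1.37 CPM at P10, against 32.6, 31.2 and 8.14 CPM at E17.5 (log2 fold change -3.51, SE 0.55, adjusted p = 0.00161). The 3 genes were lower in every P10 library. Ldha, lactate dehydrogenase, averaged 204 ± 12.9 CPM at P10 and 299 ± 27.7 CPM at E17.5 (log2 fold change -0.56, adjusted p = 0.00191), and Ndrg1, a gene induced by low oxygen, 7.14 ± 1.32 CPM at P10 and 37.2 ± 4.48 CPM at E17.5 (log2 fold change -2.38, adjusted p = 1.30e-05). Pfkp, the platelet phosphofructokinase, was the exception, with 30.99, 28.4 and 30.04 CPM at P10, against 8.02, 6.13 and 9.39 CPM at E17.5 (log2 fold change 1.92, SE 0.17, adjusted p = 4.17e-05).

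The core of the hypoxia response element, ACGTG on either strand, was looked for in the same RefSeq windows. It occurred in 16 of 29 windows (55.2%) of the 20 members with a window, out of 21, against 19.6% of all windows. The windows of the 3 genes with values above are printed 5′ to 3′ on the gene's strand with the motif in capitals, as members that fell. Of the 12 members that fell and had a window 9 held the motif, as did 6 of the 7 that did not pass. Bnip3 lies at chr7:138909457-138909756 (minus strand), Slc2a1 at chr4:119108495-119108794 (plus strand) and Hk2 at chr6:82774405-82774704 (minus strand).
Bnip3: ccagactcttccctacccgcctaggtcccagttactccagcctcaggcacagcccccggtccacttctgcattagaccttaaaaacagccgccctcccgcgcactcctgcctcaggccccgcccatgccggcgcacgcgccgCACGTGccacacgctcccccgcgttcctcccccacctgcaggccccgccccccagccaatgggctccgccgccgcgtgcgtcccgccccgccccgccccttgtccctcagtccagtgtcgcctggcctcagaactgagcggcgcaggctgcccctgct
Slc2a1: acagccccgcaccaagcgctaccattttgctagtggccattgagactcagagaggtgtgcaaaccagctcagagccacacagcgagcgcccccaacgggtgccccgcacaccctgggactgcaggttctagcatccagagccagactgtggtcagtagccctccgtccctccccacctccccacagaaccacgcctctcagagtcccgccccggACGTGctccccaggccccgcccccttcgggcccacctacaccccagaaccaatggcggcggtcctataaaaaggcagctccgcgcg
Hk2: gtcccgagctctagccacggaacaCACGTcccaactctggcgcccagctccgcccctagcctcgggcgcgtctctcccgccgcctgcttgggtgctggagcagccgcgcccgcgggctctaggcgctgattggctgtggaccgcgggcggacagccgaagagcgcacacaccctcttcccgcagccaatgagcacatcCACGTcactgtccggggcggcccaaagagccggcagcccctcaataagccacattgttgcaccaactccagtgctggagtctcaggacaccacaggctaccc
Slc2a1 holds 1 match and Bnip3 and Hk2 hold 2 each. Those of Bnip3 are the overlapping strands of 1 palindrome, and a match is again only a description.

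Of 25 oxidative phosphorylation genes 2 were lower (3 without P10 replicate 1, and 1 without any one of the 10 libraries other than that and E17.5 replicate 2 or with only the 6 libraries compared). The others did not pass, and 1 was higher without E17.5 replicate 3. Among interferon and antigen presentation genes 4 of 18 were higher and the others did not pass (7 higher without E17.5 replicate 1). H2-K1, a class I antigen-presenting chain from a family of similar genes that may share reads, had 26.2, 44.6 and 42.2 CPM at P10, against 16.7, 16.8 and 12.8 CPM at E17.5 (log2 fold change 1.29, SE 0.20, adjusted p = 0.00154), and Irf1, an interferon-induced factor, 381, 323 and 332 CPM at P10, against 124, 155 and 183 CPM at E17.5 (log2 fold change 1.16, SE 0.21, adjusted p = 0.00388). Immediate early genes, which rise during tissue dissociation, summed to 4045, 6876 and 7279.9 CPM at P10, against 6969, 5993 and 6343 CPM at E17.5, and 1 was higher and 2 lower of 21 (4 lower with only the 6 libraries compared). Their part in the other results was not tested.

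Several of the 12 highest fold changes chosen by rule belonged to genes near 0 at E17.5. Prokr2, a receptor for prokineticins, had 119, 57.9 and 51.8 CPM at P10, against 0.06796, 0.0973 and 0 CPM at E17.5; no fold is given because E17.5 was at or near 0. Its call ended with limma-voom (adjusted p = 0.242). Lrrc15, a membrane protein of activated fibroblasts, had 33.2, 15.7 and 14.7 CPM at P10, against 0.06796, 0.0973 and 0.365 CPM at E17.5 (log2 fold change 6.68, SE 0.51, adjusted p = 1.53e-05). Lrrc15 had a log2 fold change of 7.91 without E17.5 replicate 3. Sod3 (chromosome 5, 52363791 to 52371418, plus strand), the secreted superoxide dismutase, had 48.8, 58.2 and 53.9 CPM at P10, against 1.43, 0.876 and 0.678 CPM at E17.5 (log2 fold change 5.75, SE 0.28, adjusted p = 1.61e-06). Adam33, a membrane protease, had 24.5, 31.5 and 36.2 CPM at P10, against 0.612, 0.292 and 0.782 CPM at E17.5 (log2 fold change 5.68, SE 0.40, adjusted p = 8.12e-06). Each P10 library exceeded each E17.5 library by an order of magnitude or more. These genes were chosen for a high fold change and no overlap between the stages, so their separation follows from the choice. Hr, a nuclear corepressor (35.7 CPM at P10 and 0.73004 CPM at E17.5, log2 fold change 5.65, adjusted p = 2.49e-06), Kctd16, an auxiliary subunit of GABA-B receptors (16.4 CPM at P10 and 0.353 CPM at E17.5, log2 fold change 5.53, adjusted p = 2.07e-05), Enpp1, which makes pyrophosphate outside the cell (50.3 CPM at P10 and 1.21 CPM at E17.5, log2 fold change 5.33, adjusted p = 1.78e-07), and Tmcc3 (85.8 CPM at P10 and 2.54 CPM at E17.5, log2 fold change 5.10, adjusted p = 6.06e-06) were also among them. Kctd16 had a log2 fold change of 6.24 without E17.5 replicate 1. At the other end Scara5, a ferritin receptor, had 2.197, 2.01 and 1.83 CPM at P10, against 168, 333 and 290.3 CPM at E17.5 (log2 fold change -7.03, SE 0.53, adjusted p = 1.80e-05), Col6a4, a collagen VI chain, 0.9499, 0.194 and 0.203 CPM at P10, against 45.2, 68.4 and 66.03 CPM at E17.5 (log2 fold change -7.05, SE 0.51, adjusted p = 1.30e-05), and Cyp1b1, a cytochrome P450, 0.297, 0.453 and 0.559 CPM at P10, against 20.6, 36.9 and 29.1 CPM at E17.5 (log2 fold change -6.01, SE 0.40, adjusted p = 6.05e-06). Col6a4 had a log2 fold change of -8.18 without P10 replicate 1. Crh, which encodes corticotropin-releasing hormone, varied widely among E17.5 libraries, at 0.0594, 0.582 and 0.203 CPM at P10, against 8.02, 19.5 and 62.3 CPM at E17.5 (log2 fold change -6.74, SE 1.02, adjusted p = 0.00164). The call of Crh ended with limma-voom (adjusted p = 0.154). Crh had a log2 fold change of -5.61 without E17.5 replicate 3 and -7.71 without P10 replicate 2.

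Some markers of other cell types passed, in different directions from type to type. Airway epithelium markers summed to 72.8, 213 and 261 CPM at P10, against 16.9, 18.2 and 29.4 CPM at E17.5, with 2 of 5 tested higher (1 with only the 6 libraries compared, and 1 with limma-voom). Scgb1a1, the secretoglobin of club cells, had 7.72, 87.6 and 110.5 CPM at P10, against 2.92, 0.487 and 1.83 CPM at E17.5 (log2 fold change 5.24, SE 1.10, adjusted p = 0.0104); P10 replicates 2 and 3 were high and P10 replicate 1 low. The call of Scgb1a1 ended with only the 6 libraries compared (adjusted p = 0.0521), with limma-voom (adjusted p = 0.1497) and without both E17.5 replicate 2 and P10 replicate 3 (adjusted p = 0.0816). Alveolar epithelium markers gave 2 higher and 3 lower of 19 (10.5% and 15.8%, and 1 and 1 with only the 6 libraries compared), and their overlapping sums came to between 71.1 and 228 CPM at P10 and between 148 and 200.1 CPM at E17.5. Ager, a marker of type 1 alveolar cells, had 9.02, 17.7 and 14.1 CPM at P10, against 18.8, 18.98 and 17.6 CPM at E17.5 and did not pass (95% interval -0.89 to 0.02, adjusted p = 0.172). Endothelial markers were higher in 3 and lower in 1 of 17 (10 higher without P10 replicate 1, and 1 without both E17.5 replicate 2 and P10 replicate 3), summing to between 231 and 369.6 CPM at P10 and between 116 and 156 CPM at E17.5. Cd34 and Eng are also endothelial genes, and the part of endothelium in their rise was not tested. Red cell genes summed to between 27.01 and 53.9 CPM at P10 and between 117 and 180.2 CPM at E17.5, with 4 of 5 lower, a count that fell to 1 or 2 without any one of the 5 libraries E17.5 replicates 1 and 2 and P10 replicates 1, 2 and 3. Immune markers stayed under 30 CPM in sum in every library, and Ptprc, the common leukocyte antigen, had 0.772, 0.841 and 1.22 CPM at P10, against 0.204, 0.0973 and 0.0522 CPM at E17.5 (log2 fold change 2.95, SE 0.68, adjusted p = 0.0124). The call of Ptprc ended without any one of E17.5 replicates 2 or 3 or P10 replicate 3 (adjusted p between 0.0511 and 0.0654). It also ended without both E17.5 replicate 2 and P10 replicate 3 (adjusted p = 0.1398). Ptprc had a log2 fold change of 3.61 without E17.5 replicate 1.

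**Figure D4:**
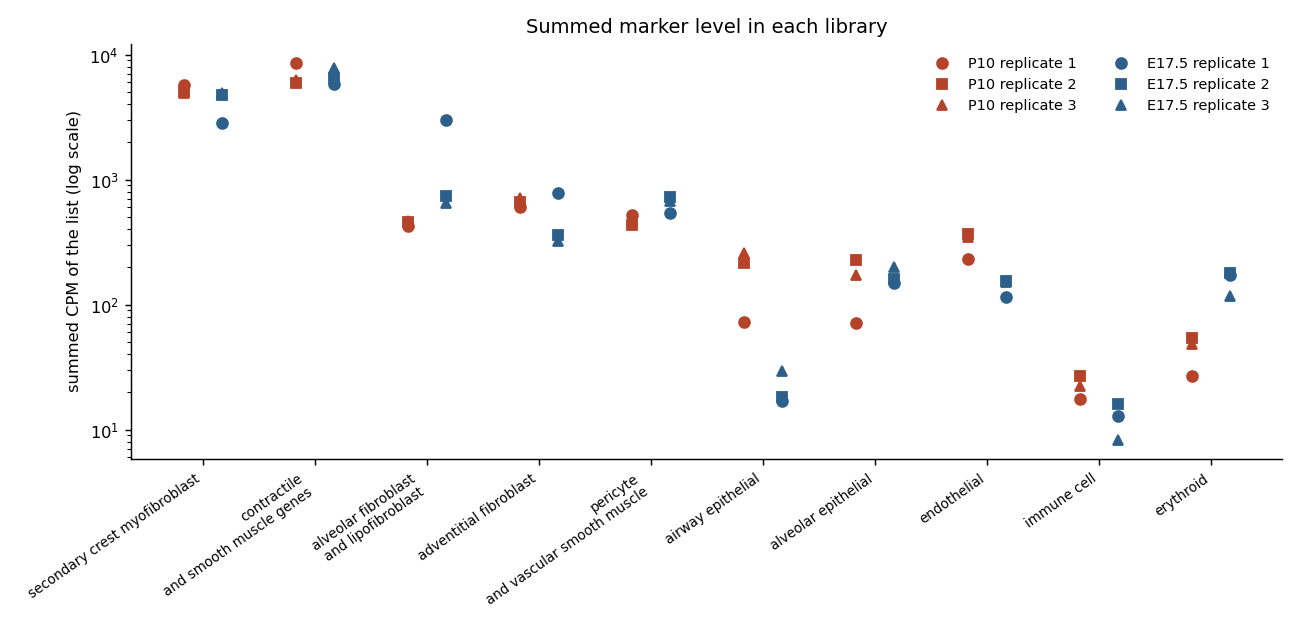
Summed level in CPM, on a log axis, of 10 lists of cell type markers in each of the 6 libraries, P10 left of E17.5 in each pair. Airway markers lie between 72.8 and 261 CPM at P10 and between 16.9 and 29.4 CPM at E17.5, and red cell genes lie lower at P10.

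Many genes that changed over the 4 stages stood close together at the first and the last. Of 5401 genes that differed over the stages (32.1% of tested genes), 2604 had a 95% interval for P10 against E17.5 that lay wholly within 2-fold. Eln was one of them, with means of 533 CPM at P3 and 1569 CPM at P7, below every library of P10 and of E17.5. Other abundant genes of that kind included Ptma, a nuclear protein of growing cells, with 1370.0, 1099 and 1169.5 CPM at P10, against 1007, 1116 and 1056 CPM at E17.5 (95% interval -0.09 to 0.48), Myl6, a myosin light chain, with 1111, 866 and 977 CPM at P10, against 1059, 1099 and 1334 CPM at E17.5 (95% interval -0.53 to 0.05), and Actb, cytoskeletal actin, with 2349.8, 1939.8 and 1962 CPM at P10, against 2419, 2657 and 2569.6 CPM at E17.5 (95% interval -0.55 to -0.03). The stages overlapped for Ptma and Myl6, and Actb was lower in each P10 library without passing (adjusted p = 0.121; 0.0399 without P10 replicate 1). The stage means of Actb between them were 3411 CPM at P3 and 2596 CPM at P7.

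**Figure D5:**
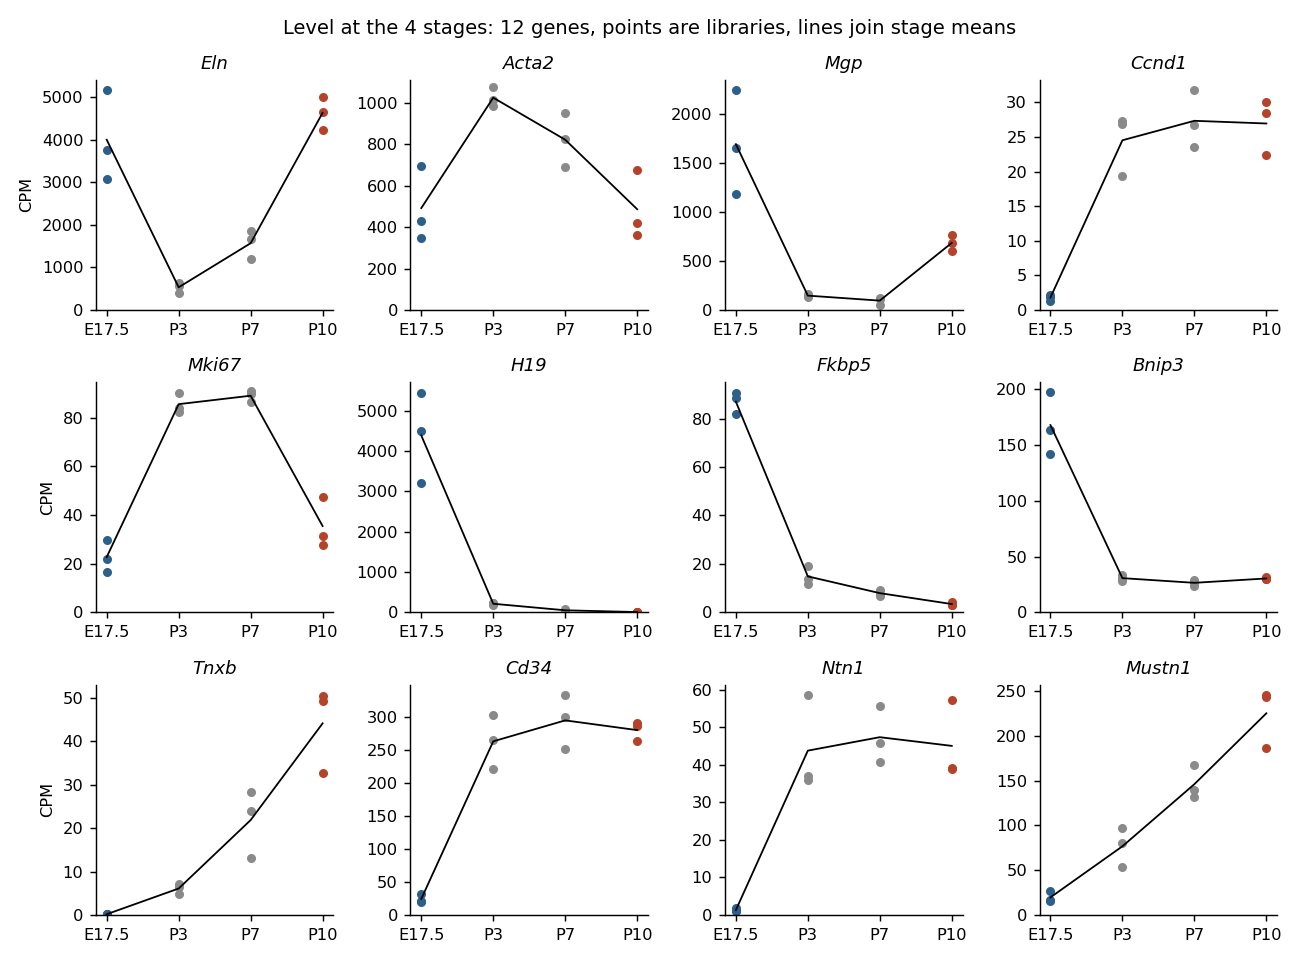
Level in CPM on linear axes from 0 at the 4 stages in developmental order, with 1 point per library and a line through the stage means. Mki67 averages 85.6 CPM at P3 and 89.1 CPM at P7 and stands lower at both ends, while Ccnd1 is low at E17.5 and near its P10 level by P3.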

How the data were processed

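Lung cells sorted for both reporters were measured in 12 libraries, 3 at each of 4 stages, made with a low-input stranded total RNA kit per the labels' protocols, although the molecule label names polyadenylated RNA. The deposited values are estimated counts per gene, whole numbers after a scaling by the authors that was read from the values. The aligner, quantifier and annotation are not named in the labels. The build was GRCm38, per the submitters' processing notes. Values of short genes look length-scaled, so a value does not count reads and a 0 sets no limit. Sums of 13328623 to 18740591 per library limit the precision of low genes most.

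Counts were used as deposited. CPM used TMM library sizes. Genes passing edgeR's filterByExpr by stage (minimum count 10, total 15) were tested with 1 model over all 12 libraries, stage as the only term, with edgeR's robust quasi-likelihood test, version 4.0.16 under R 4.3.3 with limma 3.58.1, Benjamini-Hochberg adjusted at 0.05 over 16827 genes. All adjusted p-values come from it unless another tool is named; means are ± SD with n = 3 libraries a stage, and intervals are 95%. Positions came from GENCODE mouse annotation matched by symbol for 25847 genes (92.3%). Promoter windows are from RefSeq, build GRCm38.p6. Replicate numbers of the labels were not used as a block.

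The members and the 43 gene lists were chosen with earlier results of these data known. Lists are described by counts and medians, with no set test. Named genes were the reporter genes, Eln, Yap1, Wwtr1, Ctgf, Cyr61 and Ankrd1, then, leaving out predicted models, the 12 genes at each end of the fold changes, among those with a call, at least 10 CPM at one stage and no overlap between stages. For these 12 at each end, the lack of overlap is part of the choice. Then came some of the up to 5 members of each list with the largest changes at 5 CPM or more. Not all of those were named, so the genes given for a list need not be its largest changes. Further list members named for their known roles, and genes close at both stages, were chosen after their values were seen. The alternatives were other scalings and filters, DESeq2 1.42.0, limma-voom, the 6 libraries alone, a replicate block, no robust fitting, a minimum fold of 1.5, small RNA genes left out, each library left out, and 1 setting chosen after seeing the data, without E17.5 replicate 2 and P10 replicate 3.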

Additional observations from a re-analysis of the deposited data

How the results depend on the processing

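With all 12 libraries 3077 genes passed (1479 higher and 1598 lower at P10, 1660 at least 2-fold). With only the 6 libraries compared 1687 passed (830 higher, 857 lower, 1185 at least 2-fold), of which 1633 were among the 3077. Against a minimum fold of 1.5 it was 1178 (609, 569 and 1130), all of them among the 3077. Without E17.5 replicate 2 and P10 replicate 3, a setting chosen after seeing the data, it was 1543 (791, 752 and 1088), 1445 of them among the 3077. Leaving out 1 library at a time gave 2016 to 3113 calls, 1009 to 1492 higher, 1007 to 1621 lower and 1305 to 1687 at least 2-fold. The other scalings, filters and tools gave 2542 to 4132 calls, the highest with DESeq2. The labels' replicate numbers do not say that they pair samples, and deviations of same-numbered P10 and E17.5 libraries correlated at -0.0678, 0.153 and 0.188; a replicate block gave 2590 calls, 1237 higher and 1353 lower. Leaving aside Unc5c, Mfap4 and Mfap5, which were not followed through the alternatives, 149 genes named in the report passed. Of these, 113 passed in each of the 25 alternatives that gave them a value (24 for Terc). The other 36 lost the call in one or more, 19 of these only against a minimum fold of 1.5. None of the 149 changed sign. Of those that did not pass, the log2 fold change of Acta2 (-0.02) was 0.051 with upper-quartile scaling and ran from -0.33 to 0.32 with 1 library left out, that of Yap1 (-0.02) was 0.061 with upper-quartile scaling, 0.065 without E17.5 replicate 2 and P10 replicate 3 and -0.12 to 0.033 with 1 left out, that of Cyr61 (-0.16) ran from -0.30 to 0.012 and that of Wwtr1 (0.19) from -0.048 to 0.30, with 0.37 without those 2 libraries. The cause of these shifts was not tested. Depth limits low genes most, and with 3 libraries a stage a missed threshold does not show equal levels.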
